A study of Homo sapiens with 12 samples.

Results

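The genes described here are the guanylate binding protein genes GBP1 to GBP5 together with IRF1, the receptor genes IFNGR1 and IFNGR2, and SOCS1. They were taken from the deposited expression table by gene symbol, and all rows of a symbol were summed. These 9 genes were found among 46639 gene symbols and occupied 21 of 100502 transcript rows. Of the 9 genes, 8 passed the filter on low values, set at 10 or more normalised counts in 3 or more libraries. All 8 already reached this level in the untreated libraries. GBP1 did not reach it and is described by its reads.

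RNA sequencing covered MOLM-13, a human cell line of acute myeloid leukemia, in 4 groups of 3 libraries each. Cells were untreated (96 h per the labels), or received 100 nM decitabine (DAC, a nucleoside analog that depletes DNA methyltransferases), 1 µM all-trans retinoic acid (ATRA, the ligand of the retinoic acid receptors) or DAC+ATRA, each for 72 h per the labels. In the study's methods ATRA was given only with the last of the daily DAC doses, and cells were harvested 72 h after the first dose. By that schedule the exposure to ATRA was shorter than the 72 h of the labels. The design text and the methods give 72 h for the harvest, against the 96 h label of the untreated cells. If that label holds, every comparison with untreated also differs in hours, and treatment and time cannot be told apart. All groups are described as grown in medium with human GM-CSF, a cytokine that itself signals through JAK2. The study's methods name no cytokine in the medium of its lines. No library of cells given the solvent of ATRA alone was analysed here. The triplicates are described as technical, so every p-value measures the spread within 1 experiment in 1 line.

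Interferon-γ binds a receptor made of IFNGR1 and IFNGR2, which carries the kinases JAK1 and JAK2. Their signal acts on genes that hold a gamma-activated sequence (GAS), among them IRF1, a transcription factor that in turn binds interferon-stimulated response elements (ISRE). GBPs are large GTPases among the most strongly interferon-inducible proteins of myeloid cells, where they assemble on intracellular pathogens and assist inflammasome activation. SOCS1 closes the loop by inhibiting the receptor kinases. IRF1 is also known as a gene that retinoic acid induces in myeloid leukemia cells.

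The depth was 4.67 to 11.9 M recovered reads per library (M, mega), with means of 10.1 ± 1.61 M in untreated cells, 9.32 ± 1.21 M with ATRA, 5.87 ± 1.15 M with DAC and 6.42 ± 0.78 M with both drugs (SD, n = 3). Both DAC groups were thus the shallower ones. All 7 markers of a myeloid leukemia line (CD33, PTPRC, FLT3, HOXA9, MEIS1, ITGB2 and CD4) exceeded 3 reads in every library, with summed levels from 12923 to 19379 normalised counts. Of 7 markers of other cell types, 5 held 3 reads or fewer in every library, and MS4A1 and ALB were at 0 throughout. The summed level of those 7 was 23.3 to 29.2 in untreated cells, 42.0 to 59.6 with DAC, 76.2 to 91.5 with ATRA and 67.2 to 79.6 with both drugs. It was carried by COL1A1, with means of 8.03, 21.2, 79.0 and 48.6 in this order, and CD3D, with 16.5, 25.1, 5.66 and 22.9. With ATRA alone COL1A1 was thus higher than in untreated cells and CD3D lower. The part of this level in the results below was not tested.

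The 5 GBP genes lie in 1 cluster on chromosome 1 of GRCh38, all on the minus strand. GBP3 (chr1:89006679-89022894), GBP1 (chr1:89051882-89065360), GBP2 (chr1:89106132-89150456), GBP4 (chr1:89181144-89198942) and GBP5 (chr1:89256189-89272860) follow each other over 266 kb, and GBP7 overlaps the upstream end of GBP2 on the same strand. IRF1 lies on chromosome 5 (chr5:132440440-132508719, minus strand), IFNGR1 on chromosome 6 (chr6:137197483-137219449, minus strand), SOCS1 on chromosome 16 (chr16:11254417-11256204, minus strand) and IFNGR2 on chromosome 21 (chr21:33403413-33479348, plus strand). Reads were counted in the exons of the transcripts listed.

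Promoter sequence bears on genes that move together, so the windows of 3 members and a shorter stretch of GBP3 are shown, with the elements of this pathway in capitals. The sequences are RefSeq's on GRCh38.p14, whose table held 7 of the 9 genes and not GBP2 and GBP5. Searched on both strands of the 300 bases given for each gene (250 before and 50 after the start site) were the GAS palindrome TTCNNNGAA, the ISRE core (GAAA, any NN, then GAAA again) and the retinoic acid receptor hexamer AGGTCA. Each sequence runs 5′ to 3′ along the gene's own strand, and an ISRE core on the opposite strand appears as a pair of TTTC. The first 3 lines give 160 bases before and 20 after the start site, and the line for GBP3 gives 15 and 15.
IRF1 (chr5:132490754-132490933, minus strand): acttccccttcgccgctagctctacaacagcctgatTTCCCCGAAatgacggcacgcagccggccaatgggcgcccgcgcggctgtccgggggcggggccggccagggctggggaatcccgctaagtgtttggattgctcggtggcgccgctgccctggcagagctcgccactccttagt
GBP4 (chr1:89198923-89199102, minus strand): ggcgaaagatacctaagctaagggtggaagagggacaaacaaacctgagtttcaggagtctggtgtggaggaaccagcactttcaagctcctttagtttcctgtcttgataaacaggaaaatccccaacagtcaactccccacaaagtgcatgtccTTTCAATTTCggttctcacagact
SOCS1 (chr16:11256185-11256364, minus strand): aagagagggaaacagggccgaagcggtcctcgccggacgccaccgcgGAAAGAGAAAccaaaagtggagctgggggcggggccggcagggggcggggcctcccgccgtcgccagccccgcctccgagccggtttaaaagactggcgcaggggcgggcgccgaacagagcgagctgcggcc
GBP3 (chr1:89022852-89022881, minus strand): TTCCTTGAAagaagtacTTTCAGTTTCatt

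A GAS was found in IRF1 at positions -124 to -116 from the start site (TTCCCCGAA) and in GBP3 at -15 to -7 (TTCCTTGAA). Of 35116 RefSeq promoters of this length, 7.66% held a GAS. An ISRE core was found in GBP4 at -4 to 6, in GBP3 at 3 to 12, in GBP1 at -127 to -118 and in SOCS1 at -113 to -104, against 3.57% of all promoters. No match overlapped another. GBP3 was thus the 1 member of these 7 with both elements, on either side of the start site used here. The annotated genes GBP3, GBP1 and IRF1 reach further upstream than these start sites, to chr1:89022894, chr1:89065360 and chr5:132508719. Their matches before the start site thus lie within the genes as annotated. The hexamer AGGTCA, which 13.8% of promoters held, was in none of the 7 members' windows. Only this exact string was searched, in these windows alone, so its absence does not show that a gene lacks a retinoic acid response element. The study names GBP4 as a gene with a known element of this kind. The windows of IFNGR1 and IFNGR2 held no match to any of these motifs. CpG dinucleotides, the substrate of the methylation that DAC removes, numbered 0 in GBP3, 3 in GBP4, 3 in GBP1, 36 in IRF1 and 33 in SOCS1. In the windows of IFNGR1 they numbered 29 and 25, and in that of IFNGR2 44. The median over all promoters was 14. These matches are descriptions of letters and were not tested for binding.

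IRF1, the transcription factor at the centre of the pathway, was induced by ATRA in every library, with or without DAC. Untreated libraries held 124, 114 and 139 normalised counts and DAC libraries 98.0, 91.0 and 74.0. ATRA libraries held 970.3, 1189.9 and 1257, and DAC+ATRA libraries 809, 773 and 789. None of the 4 groups overlapped another, in the ascending order DAC, untreated, DAC+ATRA and ATRA. In limma's fit IRF1 rose by 3.16 ± 0.14 on the log2 scale under ATRA (SE, n = 3 per group, adjusted p = 1.12e-12), a ratio of means of 9.05. It rose by 2.65 ± 0.14 under DAC+ATRA (adjusted p = 1.91e-11), a ratio of 6.28. In bulk RNA a change in the level per cell and a change in the share of cells that express a gene cannot be told apart. The neighbours at either end of this order did not pass the threshold of 0.01: DAC against untreated gave -0.52 (adjusted p = 0.0151) and DAC+ATRA against ATRA gave -0.52 (adjusted p = 0.0121).

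Of the 3 transcript rows of IRF1, 2 held nearly all of its reads, and both were high in the ATRA libraries. The main one, ENST00000245414.9, which starts at the promoter shown, held 107, 106 and 127 normalised counts in untreated and 867, 1090.2 and 1134 in ATRA libraries. The shorter ENST00000405885.6 held 17.1, 8.12 and 11.9 in untreated cells, 3.82, 4.70 and 0 with DAC, 103, 99.7 and 122 with ATRA and 49.0, 67.5 and 49.0 with both drugs. On the main transcript alone the change under ATRA was 3.17 (limma, adjusted p = 2.2e-12). The antisense gene IRF1-AS1 overlaps 580 of the 3767 counted exon bases of IRF1 (15.4%) on the other strand. IRF1-AS1 held 21.8, 13.0 and 20.7 normalised counts in untreated cells, 10.2, 20.4 and 7.62 with DAC, 201, 252 and 310.2 with ATRA and 255, 227 and 229.7 with both drugs. It was thus high in the same libraries as IRF1, and with all gene symbols in the fit it rose by 3.72 under ATRA (limma, adjusted p = 6.63e-09) and by 3.64 under DAC+ATRA (adjusted p = 1.02e-08). The libraries were stranded, but the strand setting of the counting is not given in the sources used here, so the part of reads shared between both genes was not tested.

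**Figure D1:**
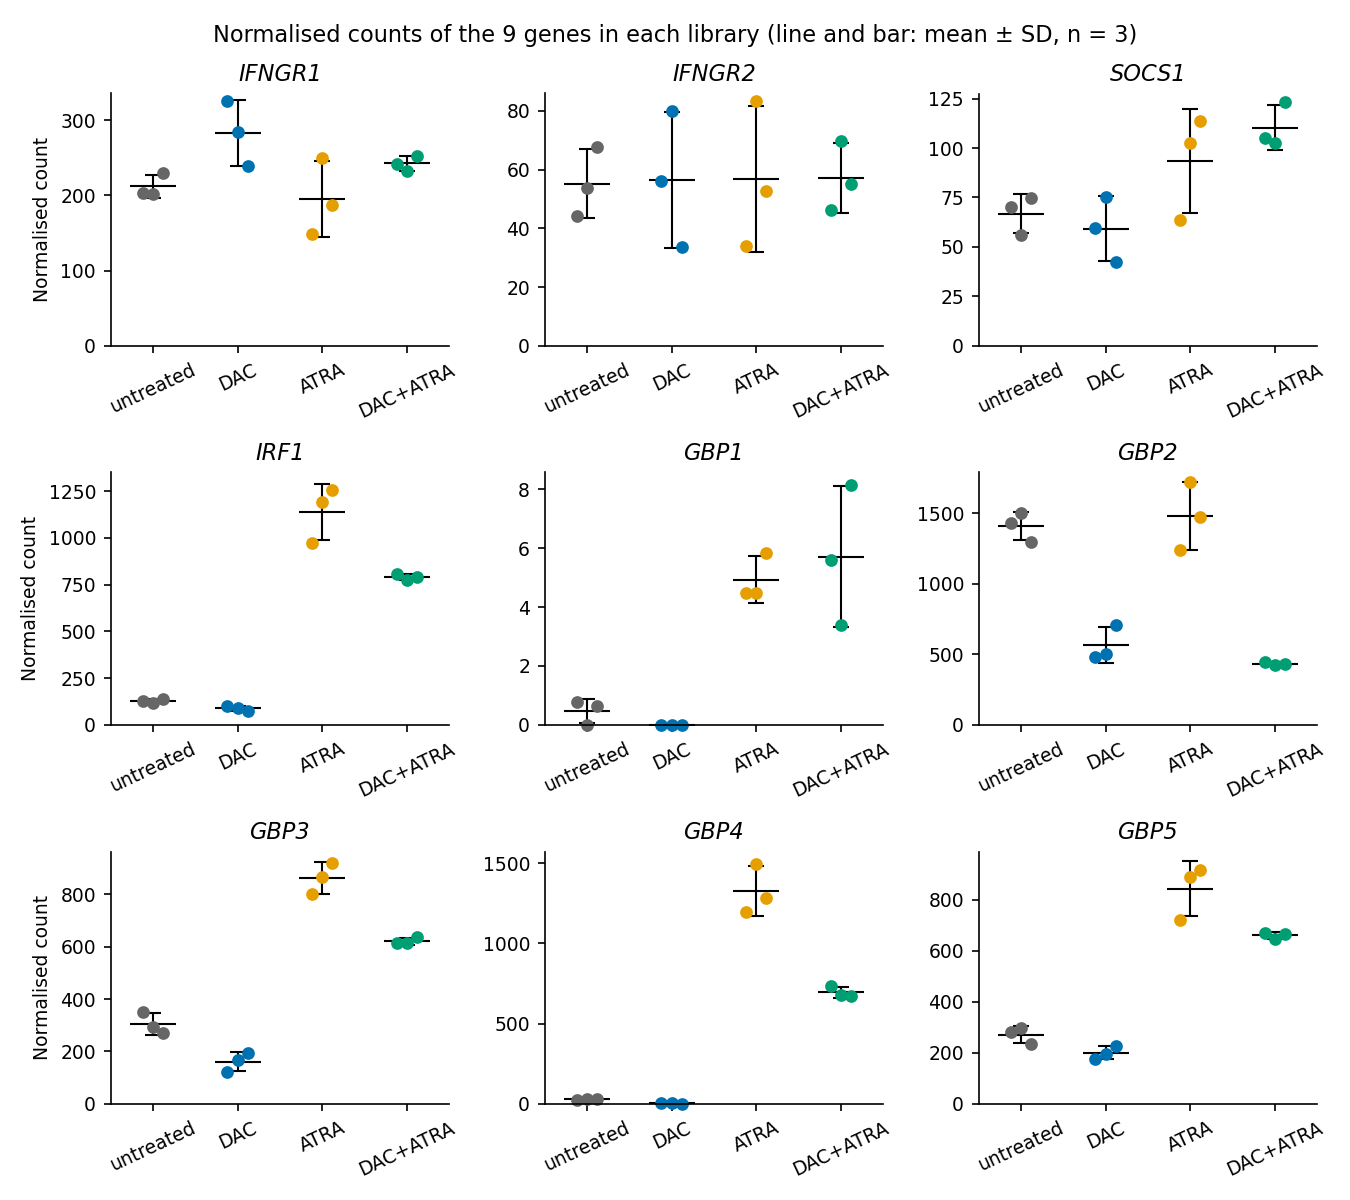
Normalised counts (y axis, a separate linear scale from 0 for each gene) of the 9 genes in each library, by group on the x axis. Points are libraries, and the line and bar give the mean and SD (n = 3). IRF1, GBP3, GBP4 and GBP5 were high in all 6 libraries that received ATRA, GBP2 was low in all 6 that received DAC, and IFNGR2 overlapped between all groups.

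GBP4 was low in untreated cells, lower still with DAC and high in every library with ATRA. Untreated libraries held 24.1, 30.9 and 28.2 normalised counts, and DAC libraries 5.09, 3.14 and 0, which are 4, 2 and 0 reads. ATRA libraries held 1199, 1499 and 1286, and DAC+ATRA libraries 735, 679 and 674. The 4 groups did not overlap. GBP4 rose by 5.53 ± 0.41 on the log2 scale under ATRA (SE, limma adjusted p = 2.1e-09), 47.9 times the untreated mean, and by 4.61 ± 0.41 under DAC+ATRA (adjusted p = 3.17e-08), 25.1 times. Under DAC alone it fell by 3.29 ± 0.41 (adjusted p = 1.36e-05). With so few reads the size of this fall depends on the settings, from -4.54 to -2.13 over 26 alternative fits, and with the 6 compared libraries alone it missed the threshold (adjusted p = 0.0154).

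GBP3 and GBP5, the neighbours at both ends of the cluster, followed GBP4 with smaller amplitudes. GBP3 held 350.0, 292 and 272 normalised counts in untreated cells, 121, 168 and 193 with DAC, 801, 868 and 921 with ATRA and 613, 613 and 636 with both drugs. GBP5 held 282, 298 and 233 in untreated cells, 177, 194 and 227 with DAC, 720.3, 890.0 and 918 with ATRA and 671, 644 and 665 with both drugs. For both genes the 4 groups were separate, in the same ascending order as for IRF1. Under ATRA GBP3 rose by 1.51 ± 0.15 (limma adjusted p = 1.73e-07) and GBP5 by 1.63 ± 0.14 (adjusted p = 1.19e-08). Under DAC+ATRA GBP3 rose by 1.03 (adjusted p = 2.04e-05) and GBP5 by 1.29 (adjusted p = 3.55e-07). GBP3 fell by 0.94 ± 0.15 under DAC alone (adjusted p = 2.55e-04), a call that missed the threshold when only the compared libraries were fitted (adjusted p = 0.022). The change of GBP5 under DAC was -0.44 (adjusted p = 0.0332) and did not pass, but passed at -0.54 without DAC replicate 3 (adjusted p = 0.00582).

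GBP2, in the middle of the cluster, was low in every library with DAC and was not called under ATRA. It held 1432, 1499 and 1299.7 normalised counts in untreated and 1242, 1724 and 1475 in ATRA libraries, which overlapped. DAC libraries held 478, 503 and 709.7, and DAC+ATRA libraries 444, 425 and 428. All 6 libraries with DAC were thus below all 6 without it. GBP2 fell by 1.34 ± 0.14 under DAC (limma adjusted p = 2.39e-06) and by 1.70 ± 0.14 under DAC+ATRA (adjusted p = 1.63e-08). Under ATRA alone the change was 0.06, with a 95% interval of -0.24 to 0.36 (adjusted p = 0.784). In the ascending order DAC+ATRA, DAC, untreated and ATRA, the outer neighbours did not differ past the threshold (DAC+ATRA against DAC gave -0.36, adjusted p = 0.0663), whereas DAC and untreated in the middle did.

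GBP1 was close to the detection limit. Its reads were 1, 0 and 1 in untreated cells, 0, 0 and 0 with DAC, 5, 6 and 7 with ATRA and 4, 3 and 8 with both drugs. With a floor of 3 reads set for each untreated library, the mean of its ATRA libraries was 2.22 times that floor. The mean of its DAC+ATRA libraries was 2.58 times it. These ratios leave out the counting error of the ATRA and DAC+ATRA means, and DAC+ATRA replicate 2 itself held only 3 reads. Without the filter on low values limma gave 2.05 for ATRA (adjusted p = 0.00135) and 2.17 for DAC+ATRA (adjusted p = 7.78e-04). The GBP genes share sequence, and of all stretches of 50 bases (the read length) in the transcripts of GBP1, 4.41% also occur in another GBP gene, mostly GBP3. This share was 3.38% for GBP3, 0.99% for GBP2, 0.312% for GBP4 and 0 for GBP5. How far shared reads entered the few counts of GBP1 was not tested.

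**Figure D2:**
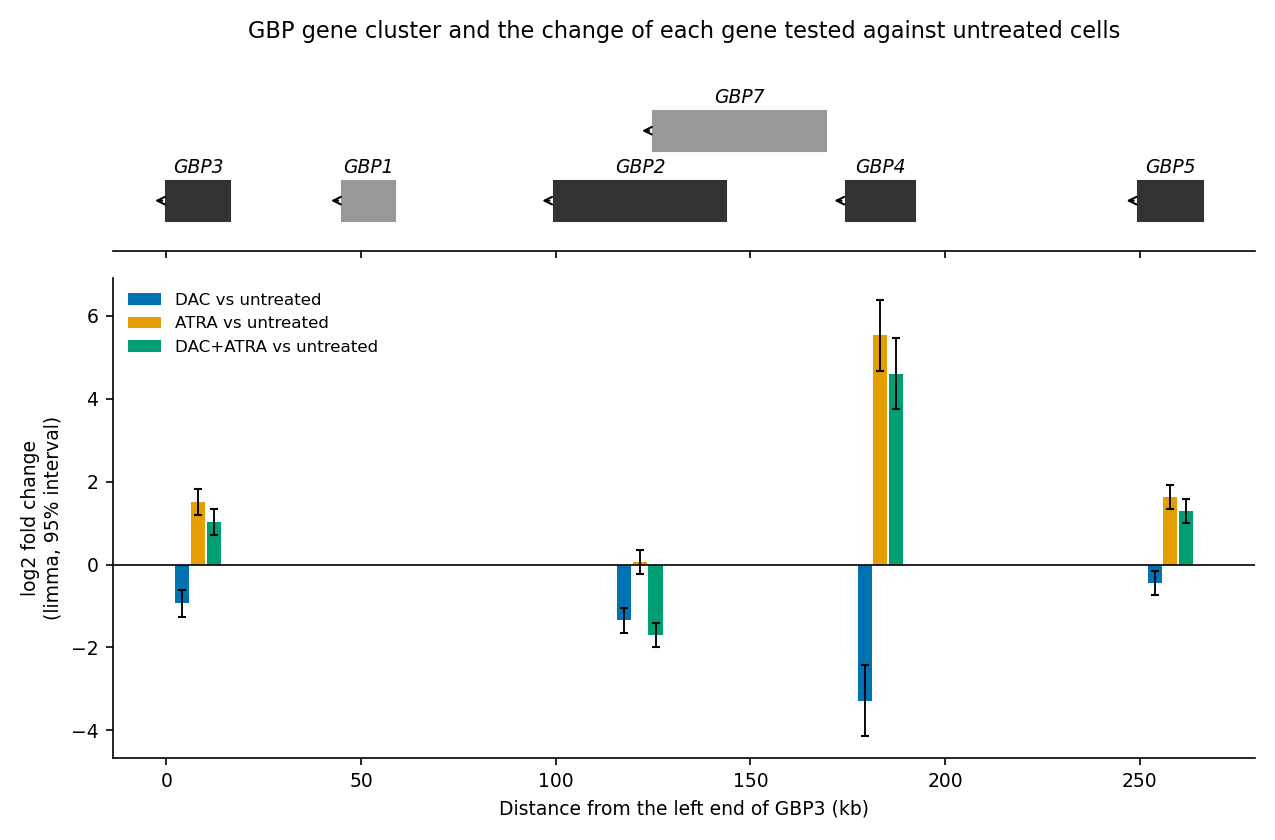
Map of the GBP cluster (top, to scale, arrows in the direction of transcription, genes without a test in the lighter gray) above the log2 fold changes against untreated cells of the 4 tested GBP genes (bars from 0, limma estimate, with 95% intervals). The x axis gives the distance from the left end of GBP3 in kb. GBP3, GBP4 and GBP5 rose with ATRA and with DAC+ATRA, whereas GBP2 between them fell with DAC and with DAC+ATRA.

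The receptor genes showed no change past the threshold. IFNGR1 held 204, 202 and 229.6 normalised counts in untreated cells, 326, 284 and 238 with DAC, 149, 249 and 187 with ATRA and 242, 233 and 252 with both drugs. Its DAC libraries lay above the untreated ones, but the difference of 0.41 had an adjusted p of 0.12 (limma, 95% interval 0.05 to 0.76). IFNGR1 under ATRA gave -0.15 (interval -0.50 to 0.21) and under DAC+ATRA 0.20 (interval -0.16 to 0.55). IFNGR2, the signalling chain of the receptor, had means of 55.2 ± 11.8 in untreated cells, 56.6 ± 23.1 with DAC, 56.7 ± 24.9 with ATRA and 57.0 ± 11.9 with both drugs (SD, n = 3). Its groups overlapped, and all 3 changes against untreated lay between -0.03 and 0.05, with intervals of -0.71 to 0.65 for DAC and for ATRA. IFNGR1 has 7 transcript rows, IFNGR2 4 and SOCS1 2, and those found in the annotation span nearly the same bases, so the levels of these 3 genes may rest on the part of their reads that fits 1 transcript alone.

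SOCS1, the feedback inhibitor, held 70.0, 56.0 and 74.6 normalised counts in untreated cells, 59.8, 75.3 and 42.5 with DAC, 63.6, 103 and 114 with ATRA and 105, 102 and 124 with both drugs. The DAC+ATRA libraries lay above all untreated and all DAC libraries and overlapped with ATRA. Against untreated, limma gave 0.72 ± 0.24 for DAC+ATRA (adjusted p = 0.0239), 0.44 for ATRA (adjusted p = 0.169) and -0.20 for DAC (adjusted p = 0.641), none past the threshold. Against DAC alone SOCS1 was higher in DAC+ATRA by 0.92 (adjusted p = 0.00735), a call lost in 9 of 26 alternative fits. Leaving out DAC replicate 1 or 3, ATRA replicate 2 or any DAC+ATRA replicate ended it, with adjusted p-values of 0.0143, 0.0316, 0.0105 and 0.0182 to 0.0403.

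**Figure D3:**
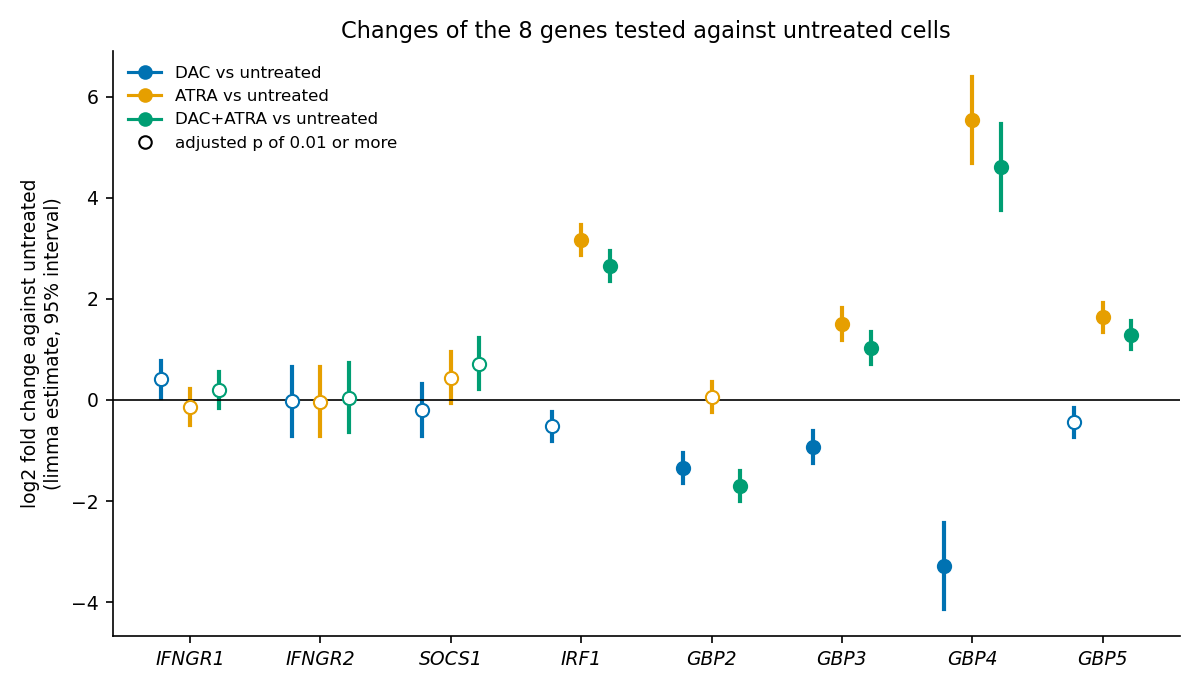
Log2 fold changes against untreated cells (y axis, limma estimate with 95% interval) of the 8 genes tested (x axis) for DAC, ATRA and DAC+ATRA. Open circles mark an adjusted p of 0.01 or more. The intervals of IRF1, GBP3, GBP4 and GBP5 lie above 0 for both groups with ATRA, and those of GBP2 lie below 0 for both groups with DAC.

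Counted over the 8 genes tested, DAC against untreated called 3 lower (GBP2, GBP3 and GBP4) and 0 higher, where 7.97% of all 10642 genes tested were called, and 3.67% of the 10642 were called lower. Without overlap, 5 genes lay lower with DAC (IRF1 and GBP2 to GBP5), as did 14.2% of all genes, and 1 (IFNGR1) lay higher, as did 16.1%. ATRA against untreated called 4 higher (IRF1, GBP3, GBP4 and GBP5), where 26% of all genes were called and 12.1% were higher. The same 4 were higher without overlap, as were 24.1% of all genes. DAC+ATRA against untreated called the same 4 genes higher and GBP2 lower, where 28.9% of all genes were called, 14.5% higher and 14.4% lower. Without overlap 6 genes lay higher, IFNGR1 and SOCS1 among them, as did 28.1% of all genes, and GBP2 lay lower, as did 27.6%. The median log2 change of the 8 genes was -0.48 under DAC, 0.97 under ATRA and 0.88 under the combination, whereas the medians over all genes tested were -0.0041, -0.038 and -0.0039. These 3 comparisons share the untreated libraries, so they are set side by side and not correlated.

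Adding ATRA to DAC raised 5 of the 8 genes, where 18.8% of all genes were called and 9.04% were higher. GBP4 was higher in DAC+ATRA than in DAC by 7.89 ± 0.41 (limma adjusted p = 1.48e-11), IRF1 by 3.17 ± 0.14 (adjusted p = 1.65e-12), GBP3 by 1.97 ± 0.15 (adjusted p = 5.69e-09) and GBP5 by 1.73 ± 0.14 (adjusted p = 7.62e-09). The size of the GBP4 change rests on the few reads of its DAC libraries. SOCS1 was the fifth, as given above. The same 5 were higher without overlap, as were 19.3% of all genes, and GBP2 was lower without overlap, as were 20.3%. For IRF1 the change that ATRA made in cells with DAC and the one it made in cells without DAC had estimates of 3.17 and 3.16.

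Adding DAC to ATRA called 1 gene, GBP2, which fell by 1.76 ± 0.14 (limma adjusted p = 4.65e-08), where 11.9% of all genes were called and 5.46% were lower. Yet the libraries of DAC+ATRA lay below those of ATRA without overlap for 5 of the 8 genes, where 18.4% of all genes did so. The estimates of the other 4 were -0.93 for GBP4 (adjusted p = 0.117), -0.52 for IRF1 (adjusted p = 0.0121), -0.47 for GBP3 (adjusted p = 0.0319) and -0.34 for GBP5 (adjusted p = 0.0791). The same 5 genes lay below without overlap in DAC against untreated. DESeq2 on the recovered reads called GBP2, GBP3, GBP4 and IRF1 lower in DAC+ATRA than in ATRA, and both edgeR fits called GBP2, GBP4 and IRF1. Without DAC replicate 3 limma also called 4 genes here, and 1778 of all genes tested, against 1270 with it. This comparison holds no library with DAC alone, but all groups share 1 estimate of spread in the fit. Over all genes, DAC replicate 3 differed from replicates 1 and 2 by a chi-square per degree of freedom of 20.5 and 13.2. Replicates 1 and 2 gave 4.18, and pairs within the other groups 2.18 to 13.1. Its part in these calls was not tested. Without DAC replicate 1 limma called 3 of the 8 genes, and without ATRA replicate 1 it called 2.

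Whether the DAC effect differed with and without ATRA was tested by the interaction, which is the DAC effect in cells with ATRA minus that in cells without. If the 96 h label of untreated cells holds, only the effect without ATRA also differs in hours, so time enters the interaction. Limma called 0 of the 8 genes, where 1.6% of all genes were called, and 2 had an unadjusted p under 0.05 (GBP3 and GBP4). GBP4 had an interaction of 2.36, with an interval of 1.16 to 3.56 and an adjusted p of 0.0248, so that its DAC effect was estimated as -3.29 without ATRA and -0.93 with it. DESeq2 called this interaction at 2.50 (adjusted p = 0.00303) and edgeR at 2.44 with the deposited size factors (adjusted p = 0.0047) and at 2.42 with TMM factors (adjusted p = 0.00519). It was also called without DAC replicate 1 (2.89, adjusted p = 0.0021) and without DAC replicate 3 (1.58, adjusted p = 3.32e-04). The DAC libraries held only 4, 2 and 0 reads of GBP4, and over 25 alternatives the estimate ran from 1.21 to 3.62 with adjusted p-values up to 0.164, of which 19 left it without a call. The interaction of IRF1 was 0.0046 with an interval of -0.41 to 0.42, that of GBP5 0.09 with -0.31 to 0.50, that of GBP3 0.47 with 0.018 to 0.91 and that of GBP2 -0.42 with -0.84 to 0.0036.

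The DAC effect averaged over cells without and with ATRA, a comparison added after the single effects had been seen, used all 12 libraries and called 5 of the 8 genes lower, where 19% of all genes were called and 8.74% were lower. These were GBP2 at -1.55 (limma adjusted p = 1.51e-09), GBP4 at -2.11 (adjusted p = 1.8e-05), GBP3 at -0.71 (adjusted p = 5.58e-05), IRF1 at -0.52 (adjusted p = 5.39e-04) and GBP5 at -0.39 (adjusted p = 0.00423). The call of GBP5 was lost in 7 of the 12 fits that left out 1 library. These were the fits without untreated replicate 1 or 2, DAC replicate 1, ATRA replicate 2 or 3, or DAC+ATRA replicate 2 or 3, with adjusted p-values from 0.0107 to 0.0175. IFNGR1 went the other way with 0.37 and did not pass (adjusted p = 0.024), except without DAC replicate 3 (adjusted p = 0.00539) or ATRA replicate 2 (adjusted p = 0.0051). The limit on hours given for the interaction also holds for this average, which includes DAC against untreated.

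**Figure D4:**
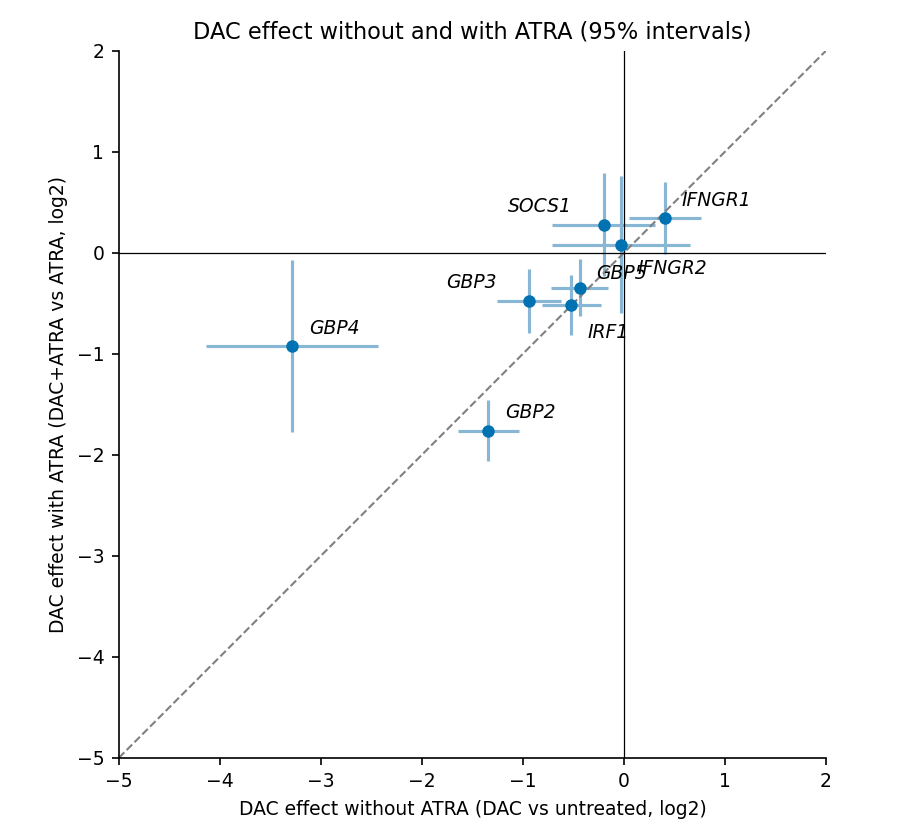
DAC effect on the 8 genes tested in cells without ATRA (x axis, DAC against untreated) and with ATRA (y axis, DAC+ATRA against ATRA), as log2 fold changes from limma with 95% intervals. The dashed line marks equal effects. By the labels, hours differ on the x axis (72 h with DAC, 96 h untreated) but not on the y axis. GBP2 to GBP5 and IRF1 lie below 0 on both axes, and GBP4 is farthest from the line, at -3.29 without and -0.93 with ATRA.

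Further genes of the pathway were read from 7 lists written from general knowledge, in the same fit. Of their 76 genes 56 were tested. The other 20 did not pass the filter, among them 3 chosen after their values were seen: IRF7 (11 transcript rows, 0 reads over all libraries), TAP1 (9 rows, 9 reads) and PSMB9 (23 rows, 3 reads). Reads that fit several transcripts may have been left out of such rows, so a low count does not show that a gene was not expressed. The counts of calls below stand against 26% of all genes called under ATRA, 7.97% under DAC and 28.9% under DAC+ATRA, and with lists of 4 to 13 tested genes no list was set apart from all genes by a test.

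Of 11 tested genes of interferon-γ receptor signalling, ATRA called 2 higher (18.2%, against 26% of all genes), DAC 1 lower (9.09%, against 7.97%) and DAC+ATRA 2 higher (18.2%, against 28.9%). JAK2, the receptor's kinase, rose by 1.42 under ATRA (limma adjusted p = 1.17e-08), from 1250.4 ± 44.6 to 3363 ± 251 normalised counts (SD, n = 3), and by 0.90 under DAC+ATRA (adjusted p = 5.97e-06). PTPN6, a phosphatase that dampens cytokine receptors, rose by 0.72 under ATRA (adjusted p = 0.00287), and PTPN1, another phosphatase of this pathway, by 0.55 under DAC+ATRA (adjusted p = 0.00954). USP18, a brake on the type I interferon receptor, fell by 2.31 under DAC (adjusted p = 7.29e-06). IFNG, which encodes interferon-γ itself, was listed at 0 in all 12 libraries, which allows up to 3 reads per library. The median change of the 11 genes was 0.38 under ATRA, 0.14 under DAC+ATRA and -0.068 under DAC.

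Of 6 tested IRF genes other than IRF1, ATRA called 2 higher, DAC 2 lower and DAC+ATRA 1 in each direction, which is 33.3% in each comparison (against 26%, 7.97% and 28.9% of all genes). IRF4, a factor of lymphoid and dendritic cells, rose by 3.69 under ATRA (limma adjusted p = 2.07e-07), from 9.84 ± 2.28 to 138 ± 22.7 normalised counts. It rose by 3.10 under DAC+ATRA (adjusted p = 2.15e-06). IRF4 reached 10 normalised counts in all 3 libraries only in the groups with ATRA and passed the filter through them, which favoured a rise. IRF2, which competes with IRF1 for the same sites, rose by 0.70 under ATRA (adjusted p = 0.00124). IRF9, the DNA-binding part of the type I interferon complex, fell by 1.41 under DAC (adjusted p = 6.92e-05). IRF8, a monocyte-lineage factor that binds together with IRF1, fell by 0.43 under DAC (adjusted p = 0.00768) and by 0.60 under DAC+ATRA (adjusted p = 1.31e-04). The median change of the 6 genes was 0.25 under ATRA, -0.038 under DAC+ATRA and -0.45 under DAC.

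Of 6 tested SOCS genes other than SOCS1, all inhibitors of cytokine signalling, DAC called 3 lower (50%, against 7.97% of all genes) and ATRA 1 in each direction (33.3%, against 26%). Under DAC these were CISH at -1.31 (limma adjusted p = 0.00162), SOCS3 at -1.29 (adjusted p = 6.43e-06) and SOCS2 at -0.81 (adjusted p = 2.38e-04). Under ATRA SOCS3 rose by 2.32 (adjusted p = 3.2e-10) and CISH fell by 1.47 (adjusted p = 1.49e-04). SOCS3, an inhibitor of cytokine receptors of the interleukin-6 family, had 1006 ± 137 normalised counts in untreated cells, 409 ± 41.1 with DAC, 5061 ± 1120.4 with ATRA and 770.2 ± 103 with both drugs. Its level in DAC+ATRA was lower than in ATRA by a change of -2.70 (adjusted p = 2.54e-10), and its interaction was called at -1.41 (adjusted p = 4.81e-04). In DAC+ATRA against untreated the list had 1 call (16.7%, against 28.9%), CISH at -1.35 (adjusted p = 3.29e-04). The median of these 6 genes was 0.20 under ATRA, -0.35 under DAC+ATRA and -0.59 under DAC.

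Of 24 genes that interferon-γ controls through GAS or IRF1, 13 were tested and 11 were not. Among the 13, ATRA called 4 higher and 3 lower (53.8%, against 26% of all genes), DAC 0 higher and 3 lower (23.1%, against 7.97%) and DAC+ATRA 5 higher and 4 lower (69.2%, against 28.9%). CIITA, the master regulator of MHC class II genes, rose by 3.62 under ATRA (limma adjusted p = 7.77e-09) and by 3.35 under DAC+ATRA (adjusted p = 2.51e-08). ICAM1, an adhesion molecule, rose by 2.90 under ATRA (adjusted p = 4.19e-13) and fell by 1.35 under DAC (adjusted p = 2.96e-07). CXCL11, a chemokine, held 18, 21 and 24 reads in untreated and 0, 1 and 0 in ATRA libraries, a fitted change of -3.76 (adjusted p = 9.29e-04). It reached the filter's level in all 3 libraries only in untreated cells and passed through them, so that the filter favoured a fall. CIITA and NLRC5 reached that level in every treated library but not in every untreated one. XAF1, a pro-apoptotic interferon target, fell in all 3 treatments, by 1.50 under DAC (adjusted p = 2.94e-07), 1.16 under ATRA (adjusted p = 1.11e-06) and 1.39 under DAC+ATRA (adjusted p = 1.09e-07). APOL6, of the apolipoprotein L family, fell by 0.90 under DAC (adjusted p = 4.25e-06). NLRC5, the regulator of MHC class I genes, rose by 1.44 under DAC+ATRA (adjusted p = 0.00253). The list as a whole thus had calls in both directions in both groups with ATRA, with medians of 0.19 under ATRA, 0.057 under DAC+ATRA and -0.40 under DAC.

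Of 8 tested effectors that act with GBPs, ATRA and DAC+ATRA each called 3 higher (37.5%, against 26% and 28.9% of all genes) and DAC 1 lower (12.5%, against 7.97%). CASP1, the inflammasome protease, rose by 1.49 under ATRA (limma adjusted p = 1.77e-07) and by 1.15 under DAC+ATRA (adjusted p = 4.87e-06). Its substrate IL1B rose by 1.41 (adjusted p = 3.75e-05) and by 0.94 (adjusted p = 0.00186). PIM1, a kinase that phosphorylates GBP1, rose by 0.69 under ATRA (adjusted p = 4.56e-05) and by 0.61 under DAC+ATRA (adjusted p = 1.69e-04), and fell by 0.78 under DAC (adjusted p = 4.72e-05). The median of the 8 effectors was 0.38 under ATRA, 0.24 under DAC+ATRA and -0.096 under DAC.

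A further list held GTPases related to the GBPs and also RNF213, which is not a GTPase. Among its 8 tested genes, ATRA called 3 higher and 1 lower (50%, against 26% of all genes). DAC called 0 in either direction (against 7.97%), and DAC+ATRA called 2 higher and 1 lower (37.5%, against 28.9%). RNF213, a ubiquitin ligase with antimicrobial activity, rose by 1.19 under ATRA (limma adjusted p = 0.00274) and by 1.19 under DAC+ATRA (adjusted p = 0.00246). ATL1, an atlastin of the endoplasmic reticulum, rose by 1.49 under ATRA (adjusted p = 0.00657), and the antiviral MX2 by 0.54 under ATRA (adjusted p = 0.00196) and 0.85 under DAC+ATRA (adjusted p = 1.9e-05). IRGQ, of the immunity-related GTPases, fell by 0.46 under DAC+ATRA (adjusted p = 0.00239), and ATL3, another atlastin, by 0.44 under ATRA (adjusted p = 0.00824). GBP6 and GBP7 were near 0, with at most 2 reads in any library. The median of the 8 tested genes of this list was -0.31 under ATRA, -0.039 under DAC+ATRA and -0.21 under DAC. All 4 receptor genes of the other interferon types were tested. DAC called 0 of them, where 7.97% of all genes were called, ATRA called 2 higher and 1 lower (against 26%) and DAC+ATRA 1 in each direction (against 28.9%). IFNAR2, of the type I receptor, rose by 2.03 under ATRA (adjusted p = 4.83e-05) and by 2.23 under DAC+ATRA (adjusted p = 1.73e-05), IFNAR1 by 0.43 under ATRA (adjusted p = 0.00317), and IFNLR1, of the type III receptor, fell by 2.71 (adjusted p = 7.61e-05) and by 2.43 (adjusted p = 2.35e-04). IFNLR1 reached 10 normalised counts throughout only in the groups without ATRA, and IFNAR2 in every treated group but not in every untreated library. The median of these 4 was 0.44 under ATRA, 0.45 under DAC+ATRA and -0.062 under DAC.

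**Figure D5:**
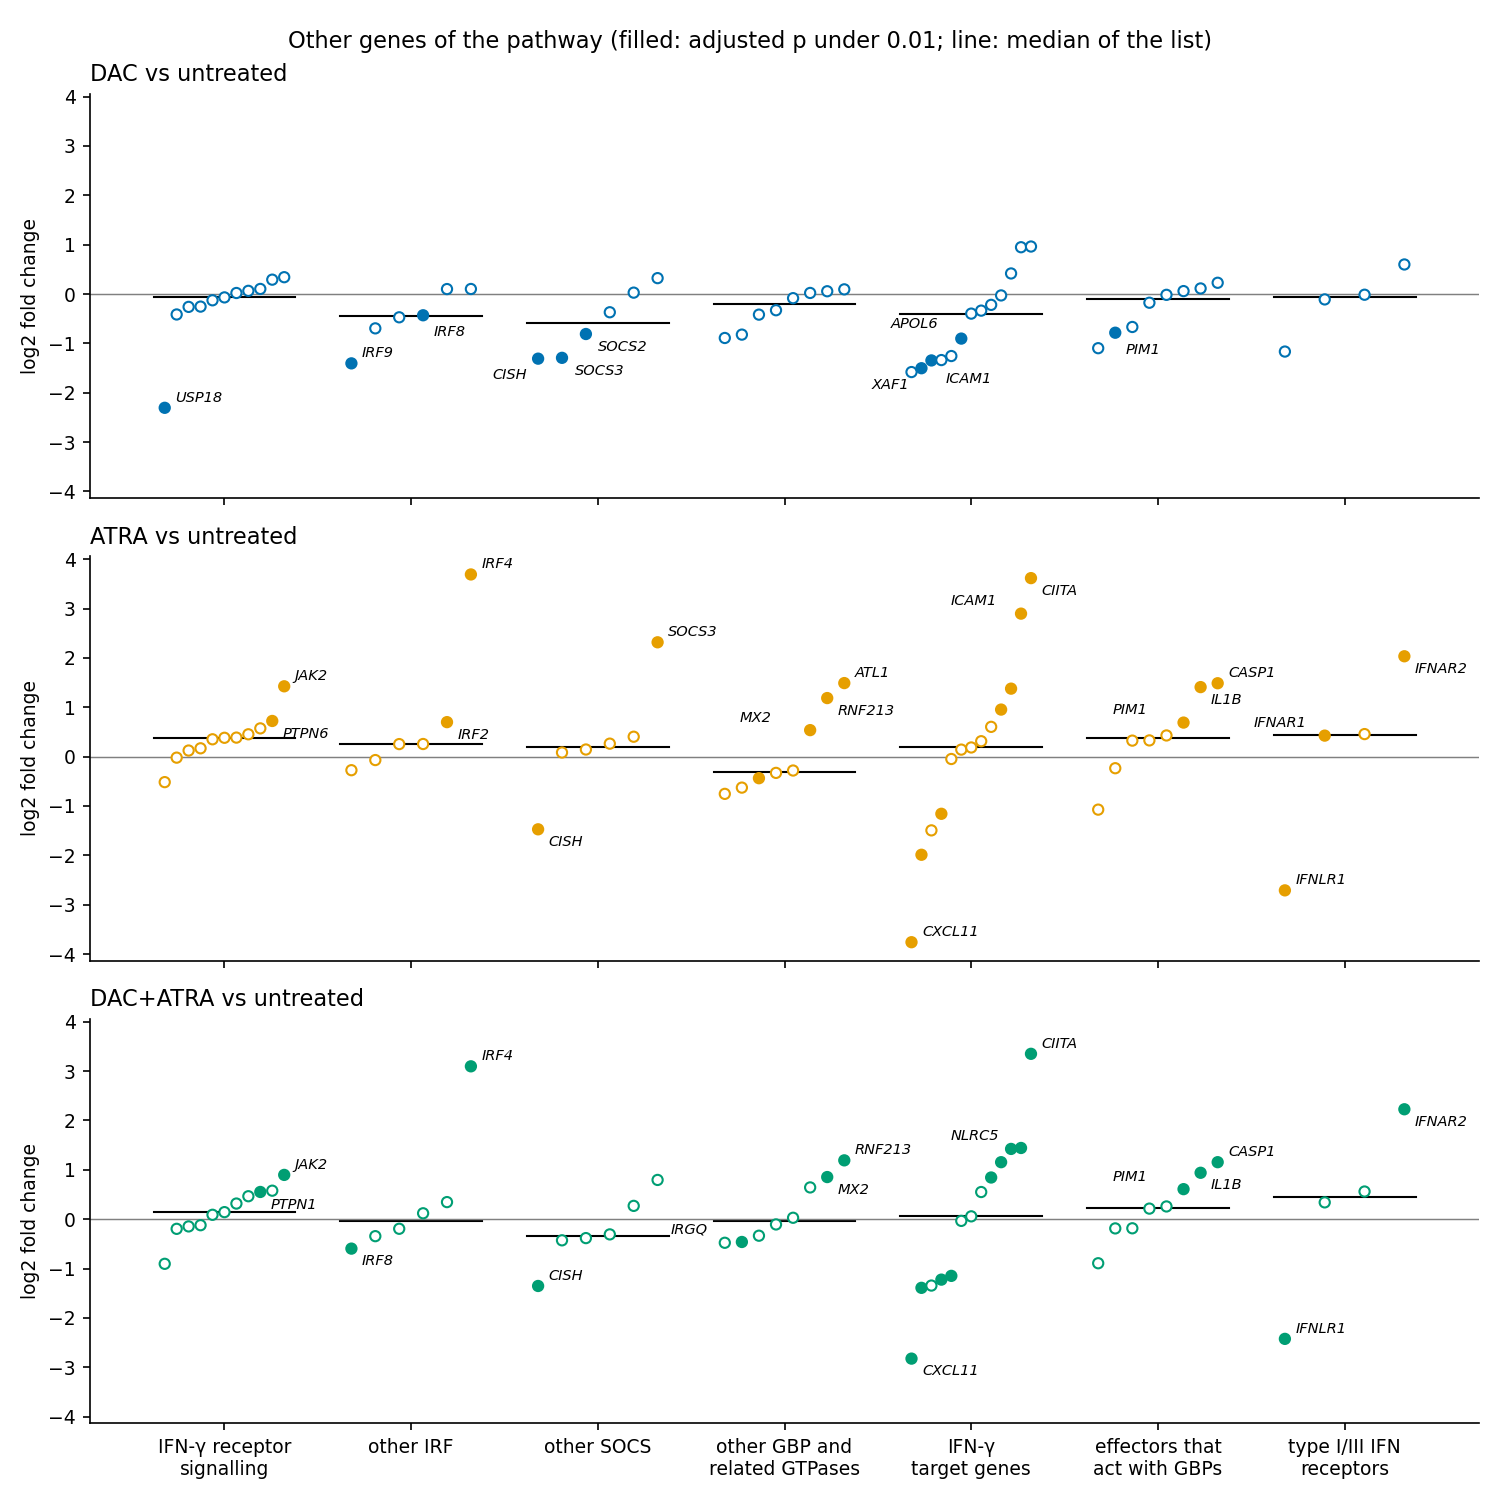
Log2 fold change against untreated cells (y axis, limma estimate) of every tested gene of the 7 pathway lists (x axis) under DAC, ATRA and DAC+ATRA. Filled points passed an adjusted p of 0.01, the line is the median of the list, and up to 3 called genes with the largest changes are named in each. Under DAC all called genes lie below 0, and under ATRA the interferon-γ target genes hold 4 called above and 3 called below 0.

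The genes whose pattern was most like that of a member were sought among 4140 genes with a call against untreated, by the mean absolute difference of the 3 log2 changes. For IRF1 they were CCR1, a chemokine receptor (0.0650), ZNF366 (0.124) and RNF122 (0.153). For GBP4 they were CLIC3 (0.863), the fructose transporter gene SLC2A5 (0.870) and NGFR (0.889). Their fitted changes under DAC were -1.37 to -0.94, against -3.29 for GBP4. NGFR had means of 3.47 normalised counts in untreated cells and 1.93 with DAC, against 27.7 and 2.74 for GBP4. A fitted fall as large as that of GBP4 was thus not open to NGFR. Both NGFR and ZNF366 had means under the filter's level of 10 in the groups without ATRA and above it in those with ATRA. For SOCS1 they were C3orf62 (0.0479), the ferritin light chain gene FTL (0.0690) and ANKMY1 (0.0728). The 3 changes rest on the same 12 libraries and share the untreated group.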

How the data were processed

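Total RNA of MOLM-13 was depleted of ribosomal RNA and sequenced as stranded paired-end libraries. The authors used STAR on hg38, counted reads per Ensembl transcript with HTSeq and divided each library by 1 DESeq2 size factor, so the deposited values are a normalised signal, called normalised counts here. All values (100%) were whole multiples of 1 read per library within 0.01 reads, which gave back the reads. Counting per transcript can leave out reads that fit several transcripts of a gene, so levels are not compared between genes and some genes of the lists fell under the filter. Rows were summed per symbol, and GENCODE release 44 on GRCh38 matched 88.9% of rows.

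Genes were tested with limma (version 3.58.1, R 4.3.3, with trend) on log2(normalised count + 1), with all 12 libraries and a coefficient per group, over 10642 protein-coding genes. This scale understates changes of low genes. Genes were called at a Benjamini-Hochberg adjusted p under 0.01 within each comparison. CTRL in the table's header was read as untreated. The recovered reads were also tested with edgeR (4.0.16) and DESeq2 (1.42.0), and alternatives took other scalings, filters, pseudocounts and samples. The fit was tested on simulated data. Intervals (95%) and floors of 3 reads cover the spread between libraries or counting error only.

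The members, lists and tests were chosen with earlier results of these data known. Named were all members, the 3 largest called changes of each list in each treatment against untreated, and the 3 genes most like GBP4, IRF1 and SOCS1. IFNG, IRF7, TAP1, PSMB9, GBP6, GBP7 and ATL3 were named after their values were seen.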

Additional observations from a re-analysis of the deposited data

How the results depend on the processing

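Of 1313 log2 changes of single genes under alternative settings, 1235 kept direction and side of the threshold, 18 lost a call, 34 gained one and 26 changed sign. This tally left out IFNGR2 beyond its 3 changes against untreated, and the mean DAC effect of SOCS1. Those main estimates lay close to 0, from 0.026 to 0.11, where a change of sign is easiest. In DAC against untreated, the fit of only the compared groups called 1 gene and an adjusted p under 0.05 called 5, against 3. In DAC+ATRA against ATRA, 4 genes were called with DESeq2 and with only the compared groups, 3 with edgeR (either set of factors) and at 0.05, and 2 with a pseudocount of 5, against 1. In the interaction, 1 gene (GBP4) was called with DESeq2, both edgeR fits and at 0.05, against 0. Leaving out 1 library gave 3 to 4 calls for DAC, 4 to 4 for ATRA, 5 to 6 for DAC+ATRA, 4 to 5 for DAC+ATRA against DAC, 1 to 4 against ATRA, 0 to 1 for the interaction and 4 to 6 for the mean DAC effect. The cause of these changes was not tested.

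The counted values that changed sign were all without a call. Those of IRF1 in the interaction were -0.012 (edgeR, TMM), -0.013 (limma, TMM, and pseudocount 5) and -0.059 (highest transcript row). IFNGR2 gave 0.011 under DAC with DESeq2, and under ATRA 0.041 with DESeq2, 0.081 and 0.043 with edgeR (TMM or deposited factors) and 0.0031 with limma on TMM scaling. Under DAC+ATRA IFNGR2 gave -0.036 on its highest transcript row. With 1 library left out, ranges that spanned 0 were -0.057 to 0.18 for GBP2 under ATRA, -0.015 to 0.20 for GBP5, -0.11 to 0.089 for IRF1 and -0.24 to 0.13 for IFNGR1 in the interaction, -0.34 to 0.031 for IFNGR1 under ATRA, -0.39 to 0.015 for SOCS1 under DAC, and for IFNGR2 -0.32 to 0.29 under DAC, -0.35 to 0.28 under ATRA and -0.11 to 0.20 under DAC+ATRA.

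Libraries with the same number did not deviate together (correlation of deviations -0.26 to 0.11 over 18 pairs, 2 of them above 0.1). Of 12 libraries, 5 were closest to their own number. The numbers thus gave no sign of pairing, though this check cannot exclude that such libraries were prepared together. With a replicate block 3 genes were called for DAC, 4 for ATRA, 5 for DAC+ATRA, 4 for DAC+ATRA against DAC (SOCS1 lost, adjusted p = 0.0124), 1 against ATRA and 0 in the interaction, with no other call changed. Depth limits GBP1, and GBP4 under DAC, since both rest on a few reads.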

Other observations

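Further genes of the interferon-γ target list, chosen after their values were seen, went in opposite directions with ATRA. FCGR1A, the high-affinity Fc receptor gene, had 1619 ± 173 normalised counts in untreated cells, 2164 ± 269 with DAC, 409 ± 62.9 with ATRA and 692 ± 71.4 with both drugs (SD, n = 3), and fell by 1.99 under ATRA (limma adjusted p = 4.1e-10). PSMB10, an immunoproteasome subunit gene, had 1592 ± 88.3, 1578 ± 289.6, 4149 ± 458 and 3547 ± 247 in the same order, and rose by 1.38 under ATRA (adjusted p = 4.97e-08). WARS1 rose by 0.95 under ATRA (adjusted p = 1.88e-04), and APOL2 fell by 1.15 under DAC+ATRA (adjusted p = 0.00302).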
